A study of Mus musculus with 6 samples.

Results

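The transcripts of 10 genes that carry iron into cells, store it, release it or sense it were followed in the kidneys of mouse pups from iron-deficient (FeD) and iron-sufficient (control) dams. The genes were taken by their symbols from the deposited raw count tables, which list 24422 genes. They are Tfrc (transferrin receptor, TfR1), Trf (transferrin), Steap3 (an endosomal iron reductase), Slc11a2 (the iron transporter DMT1), Fth1 and Ftl1 (the ferritin chains), Ncoa4 (the receptor for ferritin autophagy), Slc40a1 (the iron exporter ferroportin), and Aco1 and Ireb2 (the iron regulatory proteins IRP1 and IRP2). All 10 had a row in the tables and all 10 passed the filter on low counts, together with 15145 genes in all. Poly(A) RNA was sequenced from 3 FeD and 3 control kidneys, 6 libraries in all. The pups were wild type C57BL/6 mice of postnatal day 15. Adult C57BL/6 dams received synthetic chow of about 2 to 6 ppm iron (FeD) or chow of 220 ppm iron (control) from before mating, through pregnancy and until the kidneys were taken. Neither the sex nor the litter of a pup is given, so P values measure the spread between these kidneys, and litter and diet cannot be told apart.

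Most cells take up iron as diferric transferrin, which binds TfR1 and enters endosomes. There a STEAP reductase reduces the iron and DMT1 moves it into the cytosol. Iron that is not used is kept inside shells of heavy and light ferritin chains, is freed from them when NCOA4 carries ferritin to lysosomes, or leaves the cell through ferroportin. IRP1 and IRP2 bind iron responsive elements, short RNA hairpins, when iron is scarce. Binding in a 3′ UTR protects the TfR1 transcript from decay, and binding in a 5′ UTR blocks translation of ferritin and ferroportin, a step that a count of transcripts does not show.

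The elements were read from the mouse annotation of the build used by the authors (NCBIM37, mm9), because they separate the genes whose transcript level IRPs can set from those whose translation they control. A match was a C, then 5 bases, the loop CAGTGN of 6 bases, and 5 bases able to pair with the first 5, with G to U pairs allowed. Only the transcript strand was searched. A full stem of 5 pairs was found in the 3′ UTR of Tfrc at 4 places and in the 5′ UTR of Slc40a1, Fth1 and Ftl1 at 1 place each. The 3′ UTR of Slc11a2 held 1 match with 4 of 5 pairs. The sequences are given 5′ to 3′ on the transcript with 5 flanking bases at each end, and capitals mark the bulged C and the loop. A match is a description of the letters and not proof of a working element.
Tfrc element 1: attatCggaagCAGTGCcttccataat
Tfrc element 2: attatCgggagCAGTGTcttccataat
Tfrc element 3: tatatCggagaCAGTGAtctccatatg
Tfrc element 4: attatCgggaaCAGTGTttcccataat
Slc11a2 element: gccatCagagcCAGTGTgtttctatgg
Slc40a1 element: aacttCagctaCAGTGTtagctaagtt
Fth1 element: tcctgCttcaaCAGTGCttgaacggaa
Ftl1 element: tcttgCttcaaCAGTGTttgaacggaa

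The 4 Tfrc elements lie on the plus strand at chr16:32631306-32631332, chr16:32631685-32631711, chr16:32631750-32631776 and chr16:32631797-32631823. The Fth1 element lies at chr19:10057223-10057249 on the plus strand. On the minus strand are those of Ftl1 at chr7:52715150-52715176, Slc40a1 at chr1:45982311-45982337 and Slc11a2 at chr15:100225585-100225611. The elements of the 2 ferritin chains were the same at 25 of 27 bases, and Tfrc elements 1 and 2 were also the same at 25 of 27 bases. A full stem was found in the 5′ UTR of 0.166% of 19854 genes and in the 3′ UTR of 0.623% of 19915 genes, and a stem of at least 4 pairs in the 3′ UTR of 4.07%. No UTR of Aco1, Ireb2, Steap3, Ncoa4 or Trf held a match with at least 4 pairs, which does not exclude an element of another form.

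**Figure D1:**
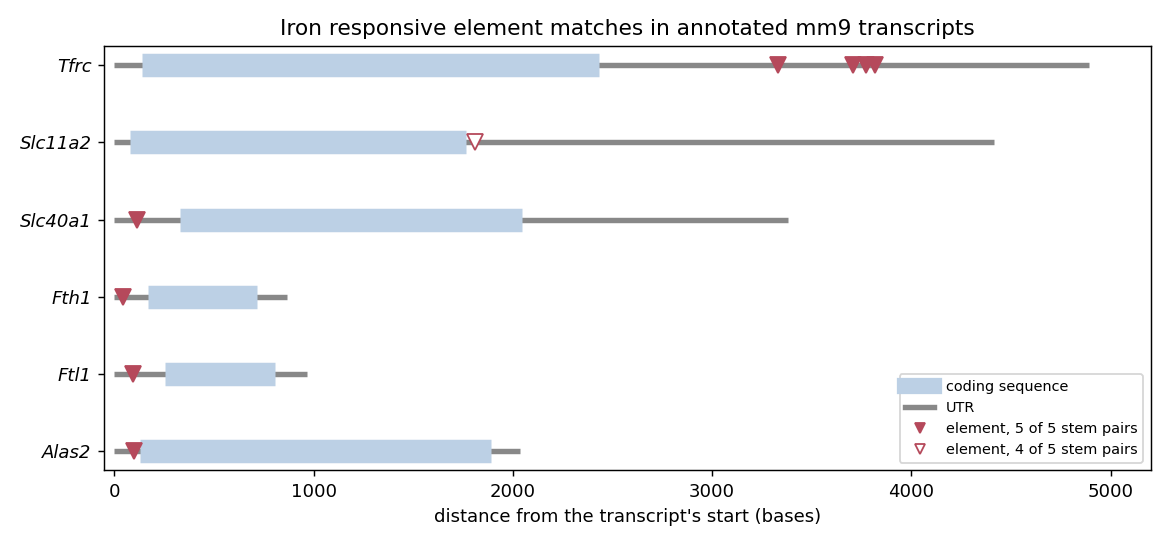
Position of iron responsive element matches (triangles) along 6 annotated transcripts, with distance from the transcript's start in bases on the horizontal axis. The Tfrc matches lie behind the coding sequence, those of Slc40a1, Fth1, Ftl1 and Alas2 lie before it, and the open triangle of Slc11a2 has 4 of 5 stem pairs.

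Between FeD and control kidneys 6 of the 10 transcripts changed at an adjusted P under 0.05. Fth1, Ncoa4 and Ireb2 were higher and Tfrc, Aco1 and Steap3 were lower in FeD kidneys. Ncoa4 (2.51-fold higher) and Steap3 (2.33-fold lower) passed 2-fold, and the other 4 differed by 1.28-fold to 1.63-fold. Slc11a2, Slc40a1, Ftl1 and Trf did not pass the test. Every adjusted P of a single fit below is from edgeR's quasi-likelihood test of FeD against control, with Benjamini-Hochberg adjustment over all genes tested. Ranges of adjusted P over all alternatives also hold values of the DESeq2 test. By the same rule 45.7% of all tested genes were called, 22.4% as higher and 23.3% as lower, and 10% were called with at least a 2-fold difference. Control and FeD kidneys did not overlap for the same 6 genes, as for 58.1% of all tested genes, so the share of the 10 genes that moved lies near the background. The median log2 fold change of the 10 was 0.06, against −0.0018 for all tested genes.

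Total counts were 16189041 to 20374327 in control and 13732173 to 20853293 in FeD kidneys, so 3 counts correspond to 2.59 to 3.9 normalized counts, and each of the 10 transcripts lay far above this. Normalized counts are counts scaled by TMM factors to the mean library size. Defining kidney transcripts were present in every library, with 13453 or more normalized counts of the proximal tubule phosphate transporter Slc34a1 and 30321 or more of uromodulin (Umod), a product of the thick ascending limb. FeD kidney 3 stood apart. A chi-square of the counts per degree of freedom was 24.0 and 30.4 between it and the other FeD kidneys, 11.5 between FeD kidneys 1 and 2, and 3.77 to 7.36 between control kidneys. Without FeD kidney 3, 7 of the 10 genes passed the test, with Trf as the added gene, and no call among the 6 was lost. These are whole kidneys, so fewer cells of a type and less RNA per cell cannot be told apart.

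**Figure D2:**
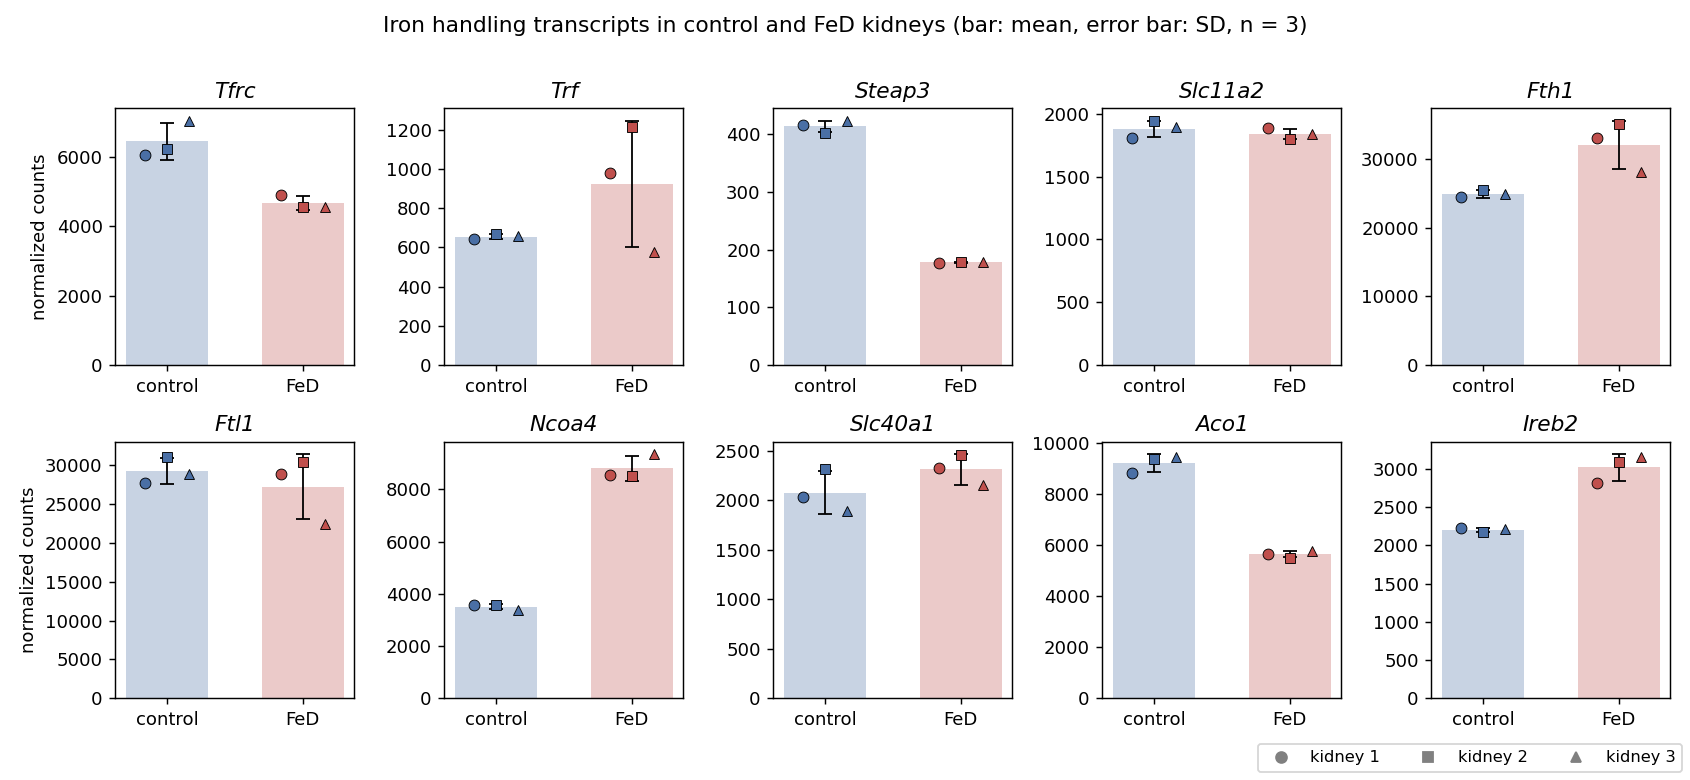
Normalized counts of the 10 iron handling genes by kidney (points, marked by kidney number), with the group mean (bar) and SD (error bar), n = 3 per group, on axes that start at 0. The groups are clear of each other for Tfrc, Steap3, Fth1, Ncoa4, Aco1 and Ireb2, and Trf in FeD kidney 3 (575) lies below all control kidneys.

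TfR1 transcripts were lower in FeD kidneys. Tfrc (chr16:32609006-32632880, plus strand) had 6058, 6239 and 7050 normalized counts in control kidneys 1 to 3 and 4898, 4546 and 4564 in FeD kidneys 1 to 3. Every FeD kidney lay below every control kidney. The mean fell from 6449 ± 528 to 4669 ± 198 (SD, n = 3 each), which was 1.38-fold lower (log2 fold change −0.47, SE 0.08, adjusted P = 0.0021). The log2 fold change stayed between −0.51 and −0.40 under the 12 other ways of processing. Proliferation markers were also lower in FeD kidneys. All 10 cell cycle genes fell (100% called, beside 45.7% of all tested genes). Among them Mki67, which marks cycling cells, went from 964 ± 101 to 207 ± 48.1 normalized counts. The sum over the list was 2714 to 3002 in control and 722 to 950 in FeD kidneys. Erythroid cells are rich in TfR1, and the summed erythroid markers ranged from 454 to 1073 in control and from 199 to 562 in FeD kidneys, so these ranges overlapped. Of 4 erythroid markers tested 1 passed, Klf1, an erythroid transcription factor, which was lower (25.0% called, beside 45.7% of all tested genes). The adult globin genes Hba-a1, Hba-a2, Hbb-b1 and Hbb-b2 are listed at 0 in every kidney. The erythroid gene Alas2 had 92.4 to 761 normalized counts in the same kidneys. The globin values were therefore not read as an absence of red cell RNA, and their reason was not tested. The part of cycling cells or of erythroid cells in the Tfrc difference was not tested.

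Among the 10 transcripts, transferrin itself varied most between FeD kidneys relative to its mean. Trf (chr9:103106331-103132774, minus strand), the plasma carrier of iron, had 641, 667 and 656 normalized counts in control and 979, 1214 and 575 in FeD kidneys. FeD kidneys 1 and 2 lay above and FeD kidney 3 below all control kidneys. With a log2 fold change of 0.49 (SE 0.23, 95% interval −0.04 to 1.01) Trf did not pass the test (adjusted P = 0.11). Without FeD kidney 3 it was higher in FeD, at a log2 fold change of 0.75 (adjusted P = 0.00049), and over all alternatives its adjusted P ran from 0.00049 to 0.30. The liver makes most plasma transferrin, so hepatocyte markers were read beside it. Of 8 tested, 4 were higher in FeD (Ttr, Serpina1a, Fga and Apoa2), and the summed list was 1952 to 2059 in control and 5964 to 6423 in FeD kidneys. Most of that sum came from Ttr (797 ± 133 in control and 2866 ± 419 in FeD kidneys) and Serpina1a (803 ± 95.8 and 2304 ± 92.1). The other 4 did not pass, among them the defining marker Alb (adjusted P = 0.88). Alb was at most 32.5 normalized counts in any kidney. Ahsg was at most 11.7 and was not tested. The part of such cells in the Trf values was not tested.

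The endosomal reductase fell and the transporter beside it was not shown to change. Steap3 (chr1:122087334-122169282, minus strand), which reduces ferric iron released from transferrin, had 416, 402 and 422 normalized counts in control and 177, 178 and 178 in FeD kidneys. The FeD values were nearly alike and all lay far below the control kidneys. The raw FeD counts were 177, 137 and 206, and agreement closer than their counting error does not show equal levels. The decrease was 2.33-fold (log2 fold change −1.22, SE 0.09, adjusted P = 5e-05). Slc11a2 (chr15:100218329-100255503, minus strand), which moves ferrous iron out of endosomes, had 1811, 1940 and 1892 normalized counts in control and 1884, 1800 and 1838 in FeD kidneys. These values were intermixed. The log2 fold change was −0.03 with a 95% interval of −0.16 to 0.10 (adjusted P = 0.67). DMT1 is made from transcripts with and without the element shown above, and counts per gene do not separate them. An opposite-strand gene, Gm5475, overlaps 6.33% of the Slc11a2 exon bases, and the strand setting of the counting is not given in the sources used here.

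Heavy chain ferritin transcripts rose in FeD kidneys, and light chain transcripts were not shown to change. Fth1 (chr19:10057193-10059582, plus strand), the heavy chain that oxidizes iron as it enters the shell, had 24387, 25503 and 24914 normalized counts in control and 32970, 35019 and 28128 in FeD kidneys. All FeD kidneys lay above all control kidneys, with FeD kidney 3 nearest to them. Fth1 rose 1.28-fold (log2 fold change 0.36, SE 0.10, adjusted P = 0.017). The call was lost when any 1 control kidney was left out, at adjusted P values of 0.064, 0.059 and 0.066 without control kidney 1, 2 and 3. The log2 fold change stayed between 0.31 and 0.46 under all alternatives, and the adjusted P ran from 0.00012 (DESeq2 test) to 0.066. Ftl1 (chr7:52713314-52715254, minus strand), the light chain that helps form the iron core, had 27630, 30953 and 28835 normalized counts in control and 28744, 30346 and 22417 in FeD kidneys. FeD kidney 3 was the lowest of the 6 and the other FeD kidneys lay within the control range. Its log2 fold change was −0.10 (SE 0.12, 95% interval −0.38 to 0.18, adjusted P = 0.52), and 0.03 without FeD kidney 3.

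A ratio taken within a kidney does not depend on library scaling. The Fth1 to Ftl1 ratio of raw counts was 0.883, 0.824 and 0.864 in control and 1.15, 1.15 and 1.25 in FeD kidneys. All FeD ratios were the higher ones, also in FeD kidney 3, where both chains were low for the group. The ratio was 1.38-fold higher in FeD kidneys, at an exact two-sided permutation P = 0.10, the smallest that 3 against 3 kidneys allow. The ratio is one of counted reads and not of molecules. Of 100-base windows of the Ftl1 transcript, 60.8% occur unchanged elsewhere in mm9, and 4 near-complete copies (chromosomes 4, 11, 13 and 17) hold 923 to 929 bases at 97.41% to 99.46% identity. The authors kept uniquely mapped reads, so Ftl1 can be undercounted. For Fth1 the share of such windows was 1.04%. A further gene on the same strand overlaps 8.13% of the Ftl1 exon bases.

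Ncoa4 rose most among the 10. This receptor, which delivers ferritin to autophagosomes, is encoded at chr14:32973051-32993041 on the plus strand. It had 3564, 3570 and 3402 normalized counts in control kidneys and 8547, 8517 and 9353 in FeD kidneys. The FeD kidneys formed a narrow group far above the controls, FeD kidney 3 included. The mean rose from 3512 ± 95.2 to 8806 ± 474 (SD, n = 3 each), or 2.51-fold (log2 fold change 1.33, SE 0.07, 95% interval 1.17 to 1.49, adjusted P = 1.6e-05), a log2 fold change at the 96.9th percentile of all tested genes. A pseudogene annotated as Gm6768 at chr12:120499436-120502748 holds 3313 bases of the Ncoa4 transcript at 99.94% identity. As a result 76.0% of 100-base windows of the transcript occur unchanged elsewhere, and the counts can understate Ncoa4 in both groups.

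The exporter was not shown to change. Slc40a1 (chr1:45964915-45982439, minus strand), the only known exporter of iron in mammals, had 2027, 2311 and 1891 normalized counts in control and 2323, 2459 and 2150 in FeD kidneys. The groups overlapped through control kidney 2. The log2 fold change was 0.15 (SE 0.09, 95% interval −0.04 to 0.35, adjusted P = 0.18). Transcripts with and without the 5′ element are counted together. Macrophages, which recycle iron, also carry ferroportin. Of their 10 markers 5 were higher and 1, the receptor Csf1r, was lower in FeD (60.0% called, beside 45.7% of all tested genes). The sum was 2915 to 3229 in control and 3133 to 3620 in FeD kidneys. The part of macrophages in the Slc40a1 values was not tested. The ferroxidases that work with ferroportin differed in their calls. Cp, ceruloplasmin, had 659, 659 and 606 normalized counts in control and 1450, 1852 and 2226 in FeD kidneys. It rose 2.88-fold (log2 fold change 1.52, SE 0.14, adjusted P = 0.00015) with no overlap. Heph, hephaestin, had 1079 ± 64.7 and 1187 ± 127 normalized counts in overlapping groups (log2 fold change 0.14, adjusted P = 0.25), and the difference between Cp and Heph was not tested.

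The 2 iron regulatory proteins moved in opposite directions. Aco1 (chr4:40090114-40146042, plus strand) encodes IRP1, which is a cytosolic aconitase when it holds an iron-sulfur cluster. It had 8824, 9373 and 9462 normalized counts in control and 5663, 5514 and 5780 in FeD kidneys. No FeD kidney came near the control range, and the decrease was 1.63-fold (log2 fold change −0.71, SE 0.07, adjusted P = 0.00015). Ireb2 (chr9:54711562-54760341, plus strand) encodes IRP2, which is degraded when iron is ample. It had 2229, 2175 and 2214 normalized counts in control and 2822, 3085 and 3154 in FeD kidneys. All FeD kidneys lay above all control kidneys, and the rise was 1.37-fold (log2 fold change 0.45, SE 0.06, adjusted P = 0.00071). Both calls stood in all 12 alternatives, FeD kidney 3 left out included. The Ireb2 to Aco1 ratio of raw counts was 0.253, 0.232 and 0.234 in control and 0.498, 0.559 and 0.546 in FeD kidneys. The ratio was thus 2.23-fold higher in FeD kidneys, with no overlap (exact two-sided permutation P = 0.10, the smallest possible). Ireb2 was higher and Aco1 lower in every FeD kidney. The separation of the ratio and its P therefore follow from those values and add no further support.

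Transcripts of the uptake receptor were also set against those of the heavy ferritin chain. Such counts measure neither iron uptake nor stored iron. The Tfrc to Fth1 ratio of raw counts was 0.248, 0.245 and 0.283 in control and 0.149, 0.13 and 0.162 in FeD kidneys. Every FeD kidney had a lower ratio than every control kidney. On average the FeD ratio was 0.567 times the control ratio, from the difference of −0.82 between the mean log2 ratios (exact two-sided permutation P = 0.10, the smallest possible). Tfrc was lower and Fth1 higher in every FeD kidney, so this separation too follows from values given above and adds no further support.

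**Figure D3:**
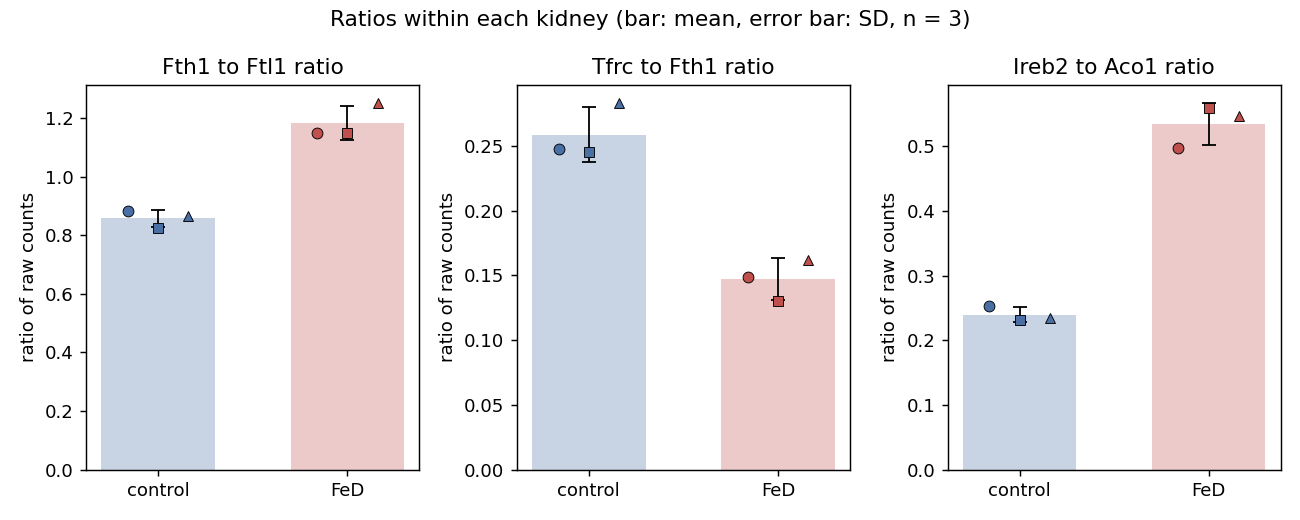
Ratios of raw counts within each kidney (points) with the group mean (bar) and SD (error bar), n = 3 per group, on axes that start at 0. FeD kidneys have the higher Fth1 to Ftl1 ratio (1.15 to 1.25 against 0.824 to 0.883) and Ireb2 to Aco1 ratio, and the lower Tfrc to Fth1 ratio, with no overlap in any panel. The separation of the Ireb2 to Aco1 and Tfrc to Fth1 ratios follows from the counts of their genes.

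Levels were compared between genes as RPKM, that is reads per kilobase of annotated exon after scaling to library size. The ferritin chains were by far the most abundant in control kidneys, Fth1 with 1580 to 1650 RPKM and Ftl1 with 1150 to 1290 RPKM. Next came Aco1 (95.1 to 102 RPKM), Tfrc (54.9 to 63.8 RPKM) and Ncoa4 (42.8 to 44.9 RPKM). Slc40a1, Ireb2, Slc11a2 and Trf followed in that order, and Steap3 was lowest, at 3.93 to 4.13 RPKM. No neighbours in the control order overlapped. In FeD kidneys Ncoa4 (107 to 118 RPKM) moved from the fifth to the third place, above Aco1 (59.4 to 62.3 RPKM) and Tfrc (41.2 to 44.3 RPKM). The ranges of Slc11a2 (15.9 to 16.6 RPKM) and Trf (9.73 to 20.5 RPKM) overlapped in FeD kidneys. Ftl1 and Ncoa4 can rank too low in both groups because reads shared with their copies were not counted. The annotation holds 2 genes named Trf. Only the length of the one located above was used, and overlap between them was not examined.

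**Figure D4:**
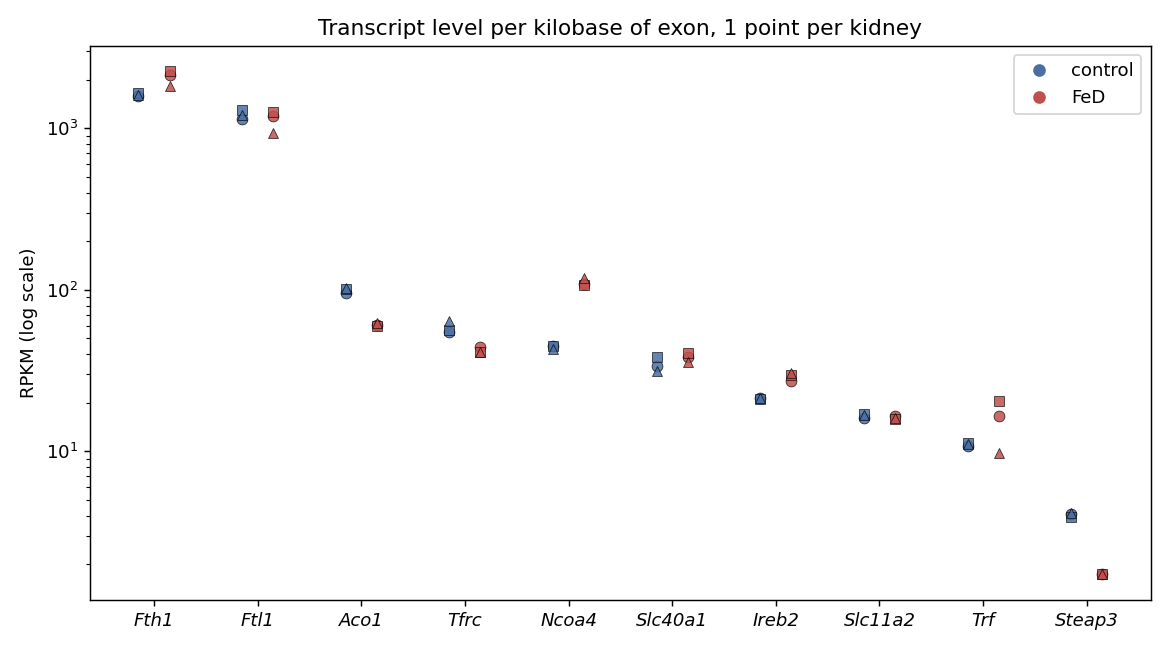
RPKM of the 10 genes on a log axis, 1 point per kidney, ordered by the control mean. Ferritin chains lie above all others, and Ncoa4 passes Aco1 and Tfrc in FeD kidneys, at 107 to 118 RPKM.

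The rest of the iron pathway was read from 6 further lists of 39 genes, 35 of which passed the filter on low counts. Of these 20 changed, 10 higher and 10 lower in FeD kidneys, or 57.1% beside 45.7% of all tested genes, and their median log2 fold change was −0.03. Of the other uptake genes 2 rose, 5 fell and 5 did not pass (58.3% called). Lcn2, a protein that binds siderophores and is released by injured tubules, had 81.5, 95.1 and 63.2 normalized counts in control and 529, 408 and 887 in FeD kidneys. It was 7.68-fold higher (log2 fold change 2.94, SE 0.30, adjusted P = 0.00021), and Slc22a17, its proposed receptor, was lower (log2 fold change −0.71, adjusted P = 0.00078). The metalloreductase Steap4 rose 2.20-fold (log2 fold change 1.14, adjusted P = 0.00054) and its relative Steap2 fell (−0.57, adjusted P = 0.0012), as Steap3 did.

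The transporters of iron that is not bound to transferrin differed little. Slc39a14 (ZIP14) had 541, 543 and 566 normalized counts in control and 469, 486 and 401 in FeD kidneys. It was 1.22-fold lower with no overlap (log2 fold change −0.29, adjusted P = 0.034). Slc39a8 (ZIP8) had 1203, 1218 and 1212 in control and 1223, 1422 and 1552 in FeD kidneys. The groups did not overlap, but the log2 fold change of 0.21 did not pass (adjusted P = 0.084). Tfr2, the iron-sensing relative of TfR1, was low, with 11.2 ± 1.98 and 5.80 ± 5.22 normalized counts (adjusted P = 0.18). The endocytic receptors Lrp2 (megalin) and Cubn (cubilin), which take up filtered transferrin in the proximal tubule, were also among the 5 that fell, with log2 fold changes of −0.48 and −0.45 (adjusted P = 0.0019 and 0.0022). Of 8 proximal tubule markers, these 2 among them, 7 fell (87.5% called, beside 45.7% of all tested genes). The sum over all 8 was 134787 to 145985 in control and 50179 to 57392 in FeD kidneys. Slc34a1 alone went from 71821 to 15383 normalized counts. Slc5a12 was not shown to change, at 10283 in control and 11651 in FeD kidneys (adjusted P = 0.33). The sum therefore does not measure the size of the segment. Whether the iron transcripts moved with the proximal tubule was not tested.

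Of 7 systemic regulators tested, 4 were higher and none lower in FeD kidneys (57.1% called, beside 45.7% of all tested genes). They were the hepcidin-inducing ligands Bmp2 (log2 fold change 0.79, adjusted P = 0.0043) and Bmp6 (0.73, adjusted P = 0.014), Neo1, a binding partner of hemojuvelin (0.34, adjusted P = 0.0077), and Tmprss6, the protease that restrains hepcidin. Tmprss6 was low in both groups, with 8.12 ± 2.93 normalized counts in control and 21.3 ± 3.45 in FeD kidneys (2.60-fold higher, adjusted P = 0.013). Hamp, hepcidin itself, had raw counts of 0, 1 and 2 in control and 13, 9 and 3 in FeD kidneys. It was below the filter on low counts and was not tested.

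Of 7 genes for iron chaperones and turnover 3 changed (42.9% called, beside 45.7% of all tested genes). Pcbp1, which loads iron into ferritin, fell (log2 fold change −0.39, adjusted P = 0.0062), as did the chaperone partner Bola2 (−0.29, adjusted P = 0.048), and Pcbp2 was higher (0.18, adjusted P = 0.034). Genes on the opposite strand overlap 59.3% of the exon bases of Pcbp2 and 21.7% of those of Bola2, and reads of such partners cannot be told apart without a known strand setting, so both calls are uncertain. The same limit holds for smaller shares of Csf1r (16.7%), Alas2 (12.9%) and Bmp6 (6.58%). Mitochondrial ferritin, Ftmt, had no count in any kidney. The 2 mitoferrins, which bring iron into mitochondria, moved apart, with Slc25a28 higher (0.40, adjusted P = 0.005) and Slc25a37 lower (−0.35, adjusted P = 0.011). Among 5 other transcripts known for an iron responsive element 1 rose and 2 fell (60.0% called, beside 45.7% of all tested genes). Epas1, the hypoxia-inducible factor HIF-2alpha, was lower (−0.34, adjusted P = 0.0044) and the kinase Cdc42bpa was higher (0.24, adjusted P = 0.031). No UTR of Epas1 or Cdc42bpa held a match by the search described above, so that search misses some known elements. Alas2, the erythroid enzyme of heme synthesis, held a full match in the 5′ UTR at chrX:146982002-146982028. With 528 ± 216 and 235 ± 163 normalized counts in control and FeD kidneys it did not pass (adjusted P = 0.081).

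**Figure D5:**
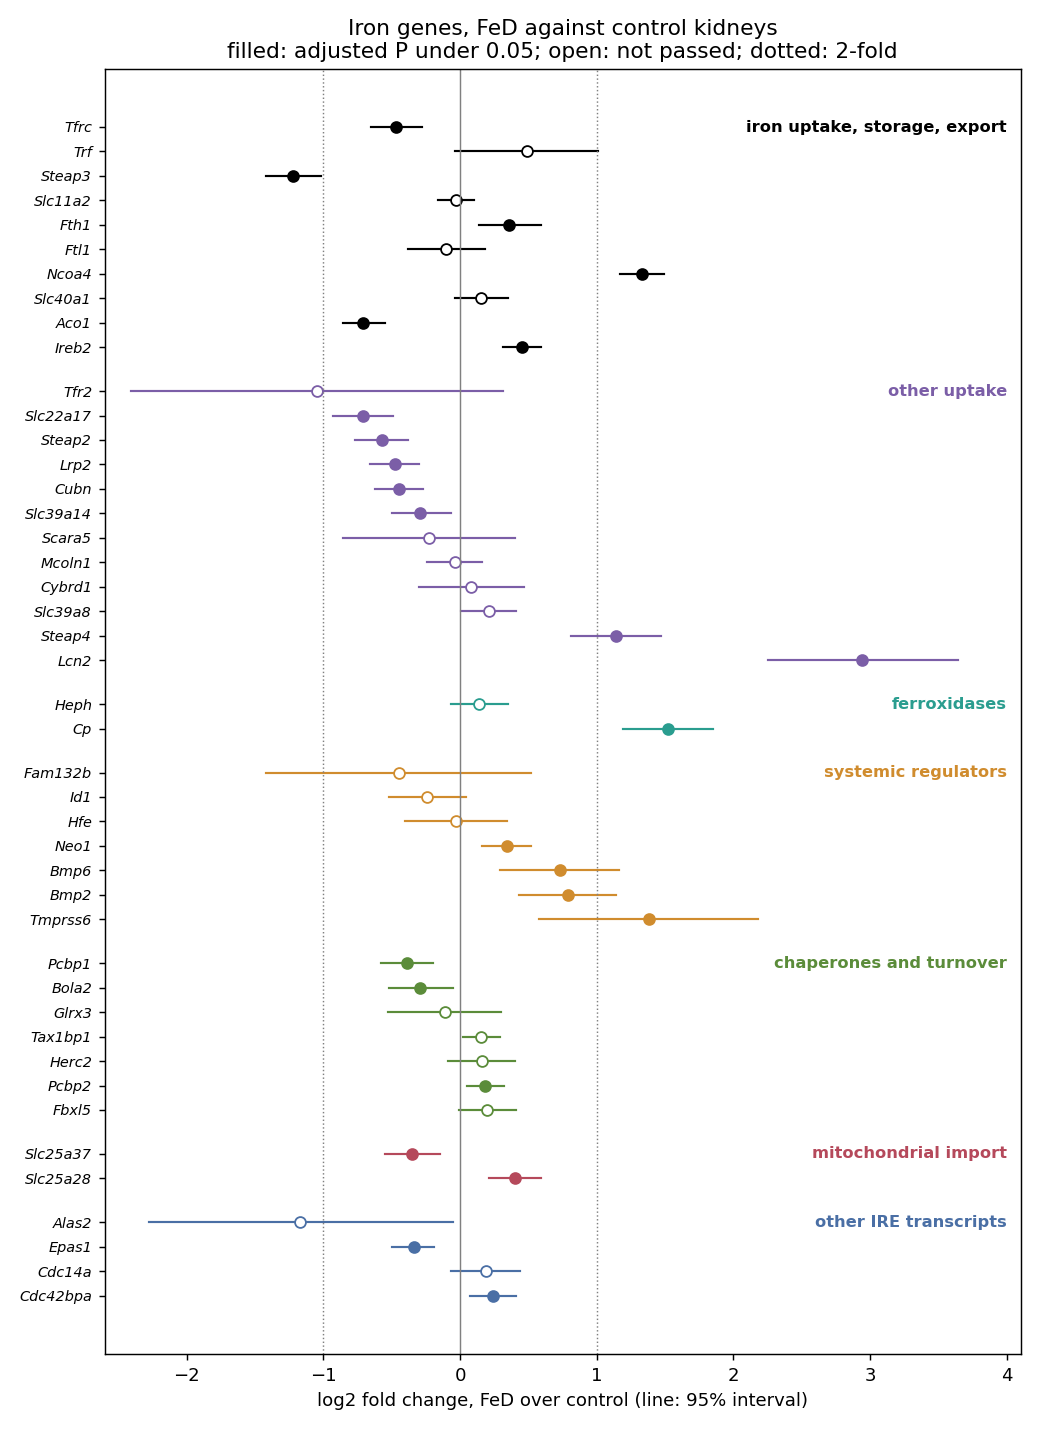
Log2 fold change of FeD over control (points) with its 95% interval (lines) for the 10 iron handling genes and for genes of 6 further iron lists. Filled points passed an adjusted P under 0.05. Among filled points Ncoa4, Cp, Steap4, Tmprss6 and Lcn2 lie beyond the dotted line of a 2-fold rise and Steap3 beyond that of a 2-fold fall.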

How the data were processed

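Per the labels and the paper's methods, the authors sequenced poly(A) RNA of 6 kidneys (TruSeq, single-end), trimmed reads (Trimmomatic), aligned them to mm9 (TopHat2 2.0.11), kept uniquely mapped reads and deposited raw counts per gene from HTSeq, not normalized or pooled. The annotation, counting mode and strand setting are not given in the sources used here.

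The tables hold 24422 genes. They were tested with edgeR 4.0.16 in R 4.3.3 (filterByExpr, TMM, quasi-likelihood test, Benjamini-Hochberg adjustment over 15145 genes, called at an adjusted P under 0.05). The procedure was run on simulated counts in which all changed genes differed 2-fold and all genes shared a common spread. These settings are simpler than the data, so that run does not cover smaller differences or the wider spread between FeD kidneys. RPKM used exon lengths of the NCBIM37 annotation, and copies were sought with BLAST+ 2.17.0. Floors of 3 counts cover counting error only. Groups came from the labels. Alternatives were DESeq2 1.42.0, its size factors, library size alone, other filters, a replicate block and each kidney left out. The genes and lists were chosen with earlier results of these data known. All 10 genes are named. Of the further lists, Slc39a14, Slc39a8, Tfr2, Cp, Heph, Hamp, every gene called at 2-fold or more and the 3 of smallest adjusted P per list are named, and of marker lists those of high level or defining role. Cubn, Ftmt, Klf1, Csf1r, Fga, Apoa2 and Slc5a12 were named after their values were seen. Some genes of these lists are not reported here.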

Additional observations from a re-analysis of the deposited data

How the results depend on the processing

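Of 189 values recomputed under the alternatives, 183 kept their direction and their side of the threshold, or, for counts of genes, stayed within 1.5 times. For the ratios, which are among the 183, only the direction counted, because their permutation P cannot pass the threshold. Their difference under the replicate block is the same by construction. The 3 that lost the threshold were those of Fth1 without control kidney 1, 2 or 3 (log2 fold change 0.34 to 0.37), and 1, Trf without FeD kidney 3 (0.75), passed it. Of genes that did not pass, Slc11a2 ranged from −0.061 to 0.0052 over the kidneys left out, turning sign without FeD kidney 2, and Ftl1 from −0.167 to 0.031, turning sign without FeD kidney 3. The cause was not tested. Other scaling shifted the median of all genes by at most 0.0088 on the log2 scale. Over all alternatives 5 to 7 of the 10 genes, 14 to 21 of the further iron genes and 5019 to 7754 of all genes were called. Kidneys share replicate numbers 1 to 3 across groups. The deviations of same-numbered kidneys correlated at −0.159, 0.003 and −0.036, and those of the other pairs at −0.086 to 0.162. With 3 kidneys per group such values cannot show whether the numbers pair them. With the replicate block 6 of the 10 genes, 17 further iron genes and 6444 genes were called, and the exact paired permutation P of each ratio was 0.25, the smallest possible. Steap3, at 177 normalized counts or more, and the other 9 genes are not limited by depth, whereas Tfr2, Tmprss6 and Hamp are.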
